A study of Mus musculus with 4 samples.

Results

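Natural killer (NK) cells of the mouse spleen were set against 2 other innate lymphoid cells, gene by gene: bone marrow ILC2 and the ILC3-like line MNK-3. A gene was set apart as higher when its NK library held at least 10 CPM (its read count scaled to the library's total of gene reads, as CPM is commonly defined) and at least 4 times the CPM of ILC2 and of each MNK-3 library. It was set apart as lower when NK held at most 0.25 times the CPM of every other library and each of those libraries held at least 10 CPM. Of 30731 genes measured in all 4 libraries, 251 were higher (0.817%) and 466 were lower (1.52%), 717 genes in all. These values chose the genes, so the sizes below describe the sets and are not tested. There was 1 NK library and 1 ILC2 library, hence no replicate check on any NK value.

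The series profiled RNA in group 1, 2 and 3 innate lymphoid cells that were also used for Hi-C, which maps contacts within the genome. All 4 samples are labelled wild type. NK cells, which the labels also call ILC1, came from spleens of C57BL/6 mice aged 8 to 12 weeks that were pooled, and the labels give no culture for them. ILC2 were taken from bone marrow of C57BL/6 mice of that same age range, also pooled, and were grown out with IL-33 and IL-25 together with IL-2 and IL-7, at 10 ng/ml. MNK-3 is a line with ILC3 features that arose from thymocytes of NIH-Swiss fetuses at day 15; its medium held IL-7 and IL-15 at 10 ng/ml, and it gave 2 libraries. Cell type, tissue, culture and, for MNK-3, strain and being a line therefore cannot be told apart in any difference below. The genes listed also differ, 53465 for NK and ILC2 and 31053 for MNK-3. Any difference in how reads were counted therefore cannot be told apart from cell type either, where NK is set against MNK-3.

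NK cells are lymphocytes without rearranged antigen receptors that kill infected or transformed cells. Activating and inhibitory receptors at their surface are read together through adaptor proteins and kinases, and killing proceeds by release of granules that hold perforin and granzymes or by death ligands. In the spleen most of them circulate, rest between encounters, and depend on the T-box factors Eomes and T-bet, whereas ILC2 and ILC3 are cytokine-secreting helper cells of tissues.

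The libraries held 4637812 reads in the shared genes for NK, 9298162 for ILC2, and 25617762 and 15177345 for MNK-3 replicates 1 and 2, so 10 CPM stood for 46.38 NK reads. Intervals below are exact 95% binomial intervals and cover counting error only. MNK-3 replicate 1 stood apart: 75.8% of its reads lay outside genes, where NK had 47.1% and the other libraries 23.1% and 24.3%, and it had a count for 95.6% of the shared genes, against 69.6% to 76.0%. Where a gene is low in the other cells, replicate 1 was often the library that limited the difference: it was the nearest library for 145 of the 251 higher genes, ILC2 for 78 and replicate 2 for 28. Without replicate 1 the rule set 428 genes higher and 487 lower. Whether its reads outside genes take part in these values was not tested. Values are scaled by library totals. The median log2 ratio of NK over ILC2, MNK-3 replicate 1 and MNK-3 replicate 2 was then 0.11, -0.88 and -0.15 over the 13151 genes at 10 CPM or more in any library. It was -0.21, -0.45 and -0.42 with trimmed means of M values (TMM) and -0.21, 0.09 and -0.35 with median-of-ratios factors, the 2 other scalings tried.

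The label of the NK library matched its markers. In what follows the NK value comes first, then those of ILC2, MNK-3 replicate 1 and MNK-3 replicate 2. Ncr1, which encodes the activating receptor NKp46 and lies at chr7:4337724-4345164 (mm10), had 1114 CPM against 0, 3.40 and 4.94 (95% interval in NK 1084 to 1145). Prf1, the pore-forming protein perforin at chr10:61297833-61304680, had 1495 CPM against 4.41, 5.23 and 0.329. Gzma, the granule protease granzyme A at chr13:113093825-113100981, had 2287 CPM against 2.26, 6.99 and 0.0659. Eomes, at chr9:118478212-118486132, had 905 CPM against 9.57, 27.5 and 29.8. All 4 were high in NK alone, and they lay 30.4-fold (Eomes) to 327-fold (Gzma) above the nearest other library.

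Most markers of other spleen cells were low in NK, and no member of any of the 10 lists for such cells was set apart. Without MNK-3 replicate 1, 1 of the 12 T cell markers was higher. The 12 neutrophil markers summed to 10.13 CPM in NK, with S100a8, S100a9, Camp and Retnlg at no counts, and the 12 erythroid markers to 15.74 CPM. The 14 monocyte and macrophage markers summed to 39.67 CPM, the 8 platelet markers to 27.6 CPM and the 8 mast cell and basophil markers to 19.84 CPM. The 18 B cell markers summed to 177.9 CPM, of which Ighm, the immunoglobulin mu chain, held 127 CPM, while Cd79a had 1.72 CPM. The 12 T cell markers summed to 149.4 CPM, and 3 of them reached 10 CPM in NK. Cd28 held 81.9 CPM of that sum, while Cd3e had 4.74 CPM and Cd8b1 no counts. Cd3g, another CD3 chain gene, had 18.8 CPM against 1.61, 17.2 and 0.659. Trdc, a T cell receptor constant gene, had 61.02 CPM against 0.430, 17.6 and 0.132. Cd3g and Trdc were each higher when MNK-3 replicate 1 was left out. The 6 plasma cell, 10 dendritic cell and 10 stromal or endothelial markers summed to 116.2, 116.4 and 115.6 CPM, mostly from Txndc5, Tcf4 and Pecam1, which many cell types express. In the other libraries the lists gave 7.313 to 53.75 CPM for neutrophils, 29.15, 68.47 and 4.942 CPM for monocytes and macrophages, and 44.87 to 294.0 CPM for T cells.

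**Figure D1:**
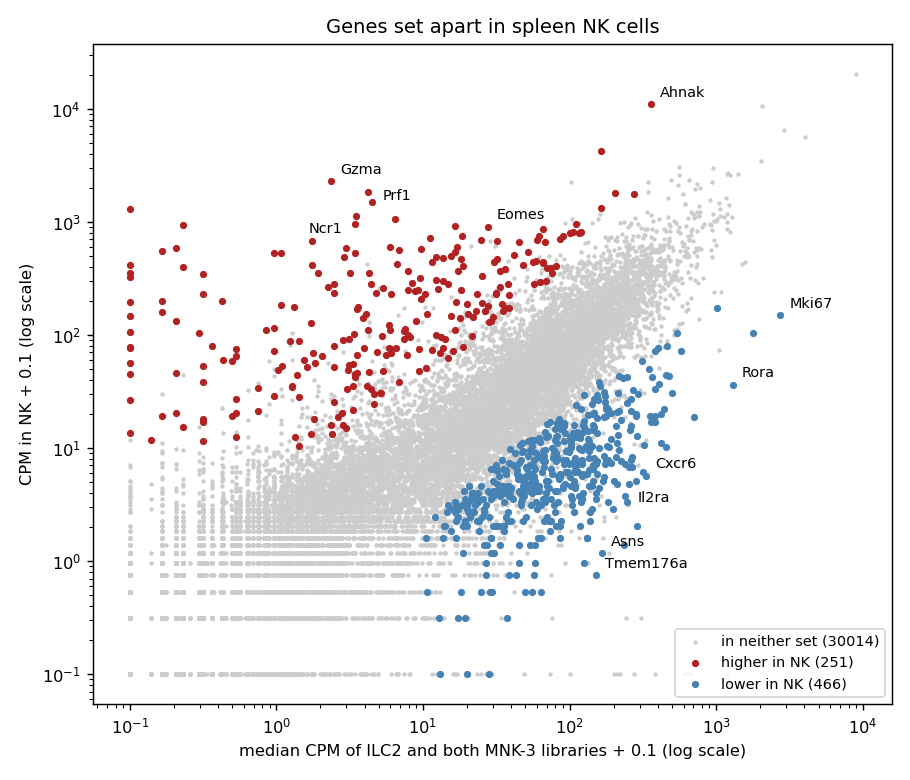
Each point is 1 of the 30731 shared genes, with its CPM in NK (vertical, log scale, 0.1 CPM added) against the median CPM of ILC2 and both MNK-3 libraries (horizontal, log scale, 0.1 CPM added). The 251 higher genes (red) reach from 10.3 to 10919 CPM in NK, the 466 lower genes (blue) lie below the main cloud, and named genes are marked.

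The higher genes were few but took a large part of the NK reads. They held 8.53% of NK gene reads, and the same genes held 0.617% of those of ILC2, 0.564% of MNK-3 replicate 1 and 0.429% of replicate 2. NK had a median of 153 CPM over the set, and the others, in the same order, 4.41, 9.95 and 2.37 CPM. The median distance to the nearest library was 7.21-fold; 119 genes lay at 8-fold or more, 57 at 20-fold and 20 at 100-fold, and 57 lay under 5-fold. ILC2 had no counts for 25 of them and MNK-3 replicate 2 for 24. By type, 239 encoded proteins and 12 did not. Of all 8620 genes at 10 CPM or more in NK, the higher set made up 2.91%.

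Per length of exon, the 3 most abundant higher genes in NK encode a granzyme, a chemokine and a receptor. Gzma stood at 2273 CPM per kb of exon, Ccl5 at 1921 and Ncr1 at 724. The long non-coding RNA AW112010 came next at 583, followed by Gimap4 at 581, Nkg7 at 580.3, Prf1 at 579 and Itgb2 at 575. Ahnak, a very large scaffold protein under the plasma membrane, took the most reads of any higher gene, with 10919 CPM against 546, 302 and 356, and stood at 548 CPM per kb.

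The 250 bases before the start of 4 genes of killing and its receptors are printed. Matches to a T-box core (TCACACCT) or a RUNX core (TGTGGT) on either strand are in capitals. Ncr1, Prf1 and Gzma are printed as markers of the cell. Nkg7 is not one of the 4 markers and was taken from the 7 windows of higher genes that hold a T-box match. They are RefSeq sequence of GRCm38.p6, read 5′ to 3′ on the strand of the gene. T-box proteins such as Eomes and T-bet, and the RUNX factor Runx3, are known regulators of NK genes.
Ncr1, chr7:4337465-4337714, plus strand: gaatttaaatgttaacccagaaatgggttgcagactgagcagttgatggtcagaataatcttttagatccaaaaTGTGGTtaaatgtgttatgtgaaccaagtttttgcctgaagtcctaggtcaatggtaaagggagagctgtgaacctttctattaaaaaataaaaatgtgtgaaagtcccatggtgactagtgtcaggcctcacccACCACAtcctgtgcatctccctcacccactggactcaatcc
Prf1, chr10:61297586-61297835, plus strand: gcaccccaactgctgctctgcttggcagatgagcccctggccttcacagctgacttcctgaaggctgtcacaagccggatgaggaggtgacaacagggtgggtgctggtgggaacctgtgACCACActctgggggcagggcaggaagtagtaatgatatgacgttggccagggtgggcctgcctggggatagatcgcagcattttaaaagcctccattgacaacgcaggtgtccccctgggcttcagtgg
Gzma, chr13:113100982-113101231, minus strand: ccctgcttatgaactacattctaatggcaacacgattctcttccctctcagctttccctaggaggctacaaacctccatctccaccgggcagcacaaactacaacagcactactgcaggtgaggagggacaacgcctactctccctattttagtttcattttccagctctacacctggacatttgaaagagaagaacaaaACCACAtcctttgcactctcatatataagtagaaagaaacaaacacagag
Nkg7, chr7:43436888-43437137, plus strand: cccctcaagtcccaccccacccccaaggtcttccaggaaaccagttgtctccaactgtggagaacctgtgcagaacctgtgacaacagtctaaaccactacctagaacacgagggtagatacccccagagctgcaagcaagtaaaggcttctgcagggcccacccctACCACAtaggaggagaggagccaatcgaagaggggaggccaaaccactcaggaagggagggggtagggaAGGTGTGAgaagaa
The Ncr1 stretch held 2 RUNX matches and no CpG dinucleotide, Prf1 and Gzma held 1 RUNX match each, and Nkg7 held 1 RUNX match and a T-box match 14 bases before the start. The window of Eomes itself held neither. Such matches are descriptions of letters, not of binding.

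Promoters of the higher genes were poor in CpG. Windows of 300 bases (250 before the start and 50 after) were found for 187 of the 250 higher genes that have a symbol, 249 windows in all. Their median was 7 CpG dinucleotides, against 22 in the 8831 windows of genes at 10 CPM or more in NK and 7 in all 32544 windows. At most 10 CpG were present in 59.4% of them, against 19.1% for genes at 10 CPM or more in NK. The RUNX core occurred in 24.9% of the higher genes' windows, against 12.6% for genes at 10 CPM or more in NK and 16.7% of all windows. The T-box core occurred in 7 windows (2.81%), against 0.725% and 1.28%. Within windows of at most 10 CpG, which removes part of the difference in base composition, RUNX occurred in 36.5% against 24.0% and 21.2%, and T-box in 3.38% against 1.48% and 1.72%. Within windows of more than 10 CpG the RUNX shares ran the other way, 7.92% of 101 windows of higher genes against 9.97% for genes at 10 CPM or more in NK, and T-box occurred in 2 windows.

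**Figure D2:**
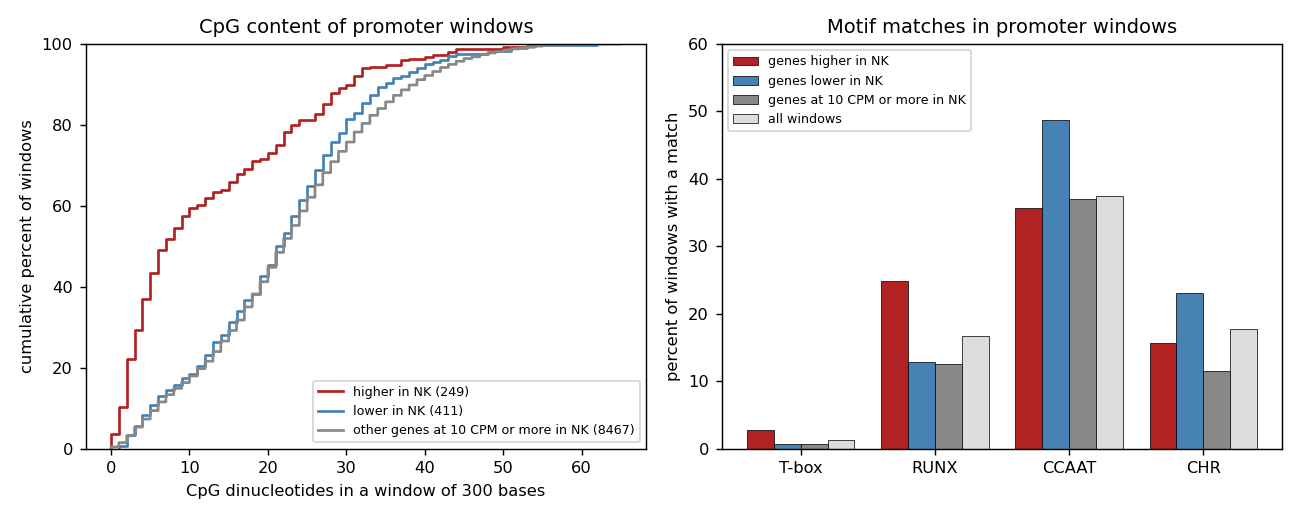
Left: cumulative percent of promoter windows against their number of CpG dinucleotides for higher genes (red), lower genes (blue) and the other genes at 10 CPM or more in NK (grey); the red curve runs to the left of the others. Right: percent of windows with at least 1 match to the T-box, RUNX, CCAAT and CHR letters in higher genes, lower genes, genes at 10 CPM or more in NK and all windows; RUNX is 24.9% in the red bar against 12.6% in the dark grey bar, and CCAAT is 48.7% in the blue bar.

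Surface receptors of NK cells were well represented among the higher genes. Of 22 activating NK receptors measured, 14 were higher and none lower, and of 25 inhibitory and regulatory receptors 13 were higher and 3 lower. The 3 lower calls became 2 with TMM and 0 with median-of-ratios scaling. The median log2 ratio of NK over ILC2, MNK-3 replicate 1 and MNK-3 replicate 2 was 7.85, 4.02 and 5.44 for the activating list and 4.22, 4.01 and 4.60 for the inhibitory list. The same medians over all genes, given above, lay between -0.88 and 0.11. Klrk1, the receptor NKG2D for stress-induced ligands, had 943 CPM against 0, 3.12 and 0.132. Klrb1c, the antigen NK1.1 used to sort NK cells in C57BL/6 mice, had 715 CPM against 0.108, 11.1 and 16.01. Cd2, an adhesion receptor that costimulates killing, had 582 CPM against 0.108, 14.8 and 0.0659. The SLAM family receptors Ly9, Cd244a and Slamf7 reached 316, 260.5 and 199.7 CPM in NK, and no other library exceeded 20.3 CPM for any of them.

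The Ly49 receptors, which are encoded by Klra genes and bind MHC class I, had many reads in NK and few or none elsewhere. Klra4 (the activating Ly49D) had 549 CPM against 0, 0.273 and 0.0659. Klra8 (the activating Ly49H, which recognises a cytomegalovirus protein) had 355 CPM against 0, 0.0781 and 0, the replicate 1 value being 2 reads. Inhibitory members followed with Klra9 at 199 CPM, Klra7 at 195, Klra3 at 107 and Klra1 at 77.8 CPM, each without counts in ILC2. Klra10 and Klra5 had 8.84 and 6.90 CPM in NK, under the minimum, and so stayed outside the set. Ly49 genes are near-identical copies whose number differs between strains, so reads may be split among them and the MNK-3 values may depend on its strain; neither was tested.

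Receptors for the non-classical MHC molecule Qa-1 and their kin were as separate. Klrd1, the shared chain CD94, had 232 CPM against 0.215, 0.625 and 0. Its inhibitory partner Klrc1 (NKG2A) had 323 CPM against 0, 0.586 and 0. The activating partner Klrc2 (NKG2C) had 146 CPM against 0, 0.117 and 0. Klri2 had 674 CPM against 0, 3.24 and 1.65, and Klre1, with which it pairs as a receptor, had 419 CPM against 0, 2.26 and 0. Klrg1, an inhibitory receptor of mature cells, had 89.7 CPM against 20.8, 2.73 and 1.98, so ILC2 was its nearest library, and it fell under 4-fold with both other scalings. Tigit, an inhibitory receptor for nectin-like ligands, had 69.2 CPM against 12.7, 1.68 and 0.527.

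The Klr genes named above, apart from Klrg1, lie together on chromosome 6. In the interval from the Klrb1a gene to the Klra2 gene (chr6:128609227-131247362, mm10), 19 of 43 measured protein-coding genes were higher and none was lower, and 18 of its 24 Klr genes were higher. The run Klre1, Klrd1, Klrk1, Klrc3, Klrc2, Klrc1, Klri1 and Klri2 covers 162.6 kb (chr6:129577905-129740484) without a gene outside the set. BC035044, the higher gene of the interval outside the Klr family, had 30.6 CPM against 7.10, 4.96 and 1.32. The rest of the interval was in neither set, receptors included. Cd69, an activation marker, had 45.1 CPM against 18.3, 84.5 and 124. Clec2d, which encodes a ligand, had 54.1 CPM against 61.2, 25.8 and 35.6. Klrb1b, the receptor that binds Clec2d, had 191 CPM against 6.88, 104 and 146.

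Other neighbours were also higher together. Of 239 protein-coding higher genes, 43 stood next to another in gene order, in 16 runs. Of 464 protein-coding lower genes, 69 stood next to another lower gene, in 27 runs. No such share is given for genes at large, so adjacency is not read as a trait of the higher set. Chromosome 6 held 12.1% of the higher genes against 5.07% of all protein-coding genes. Of its 29 higher genes, 19 are those of the Klr interval above, so this share is not separate from that cluster. Chromosomes 1 and 13 held 10.9% and 7.53% against 5.47% and 3.80%. Chromosomes 7, 11 and 2 held 8.79%, 7.11% and 5.44% against 9.17%, 7.47% and 8.4%. The runs of higher genes included Cd244a, Ly9 and Slamf7 (chr1:171559193-171653035), Ccl3 and Ccl4 (chr11:83647844-83664683), and Serpinb6b, Serpinb9 and Serpinb9b (chr13:32965209-33041884).

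Some receptors that NK cells carry were shared with MNK-3, with few or no reads in ILC2. Cd7 had 306 CPM against 0, 59.4 and 77.5. Fcgr3, the Fc receptor CD16 through which NK cells see antibody, had 70.5 CPM against 0.323, 28.03 and 38.1. Cd226, an activating receptor for nectin-like ligands, had 78.7 CPM against 6.35, 22.99 and 20.8. Each was less than 4-fold above a MNK-3 library. Slamf6 had 13.4 CPM against 0.108, 75.4 and 0.329, where only replicate 1 was high.

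The adaptors and kinases that carry receptor signals were split. Of 30 measured, 10 were higher and none lower, with medians of 1.91, 1.66 and 1.75 on the log2 scale against ILC2 and both MNK-3 libraries. Tyrobp, the adaptor DAP12 that Ly49D and Ly49H need, had 353 CPM against 1.83, 2.69 and 0.198. Cd247, the zeta chain that pairs with NKp46 and CD16, had 265 CPM against 2.15, 32.9 and 0.461. The kinases followed, with Lck at 584 CPM against 2.90, 32.2 and 2.37. Fyn, another Src family kinase, had 800.2 CPM against 80.98, 132 and 117. Syk, which binds phosphorylated DAP12, had 544 CPM against 39.4, 16.5 and 0.791. Txk, a Tec family kinase, had 387 CPM against 0.645, 89.9 and 74.7 and was close to the 4-fold limit at 4.30-fold. Sh2d2a had 445 CPM against 92.8, 55.9 and 36.8 and fell under 4-fold with other library scalings. Fcer1g, the other adaptor of NKp46 and CD16, had 372 CPM against 37.6, 132 and 173 and was in neither set, and the kinase Zap70 had 147 CPM against 38.5, 289.8 and 397.

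Several effector proteins of the cytotoxic granule were higher in NK, while Rab27a and Srgn, of granule docking and packing, were in neither set. Of 20 cytotoxic granule genes 8 were higher and none lower. Besides Gzma and Prf1 these included Gzmb (granzyme B) with 572 CPM against 4.73, 9.52 and 11.6. Nkg7, a granule membrane protein, had 530.4 CPM against 0.108, 2.46 and 0.857. Ctsw, a cathepsin of killer cells, had 306 CPM against 4.09, 16.8 and 12.1. Cma1, a chymase gene, had 159.8 CPM against 0, 1.95 and 0.0659. Serpinb9, the inhibitor that protects a killer cell from its own granzyme B, had 497 CPM against 12.6, 23.8 and 15.4. Its neighbour Serpinb6b had 486 CPM against 12.5, 2.77 and 0.0659. Fasl, the death ligand, had 133 CPM against 0.108, 4.10 and 0.0659. Rab27a, which docks granules, had 387 CPM against 40.2, 96.8 and 117, highest in NK but less than 4 times MNK-3 replicate 2. Srgn (serglycin), which packs them, had 230.1 CPM against 639, 95.9 and 132. Other granzymes were low in NK. Gzmc had 0.647 CPM against 0.215, 20.6 and 30.4 and was highest in MNK-3. Gzmk had 6.68 CPM against 0, 7.30 and 0.

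**Figure D3:**
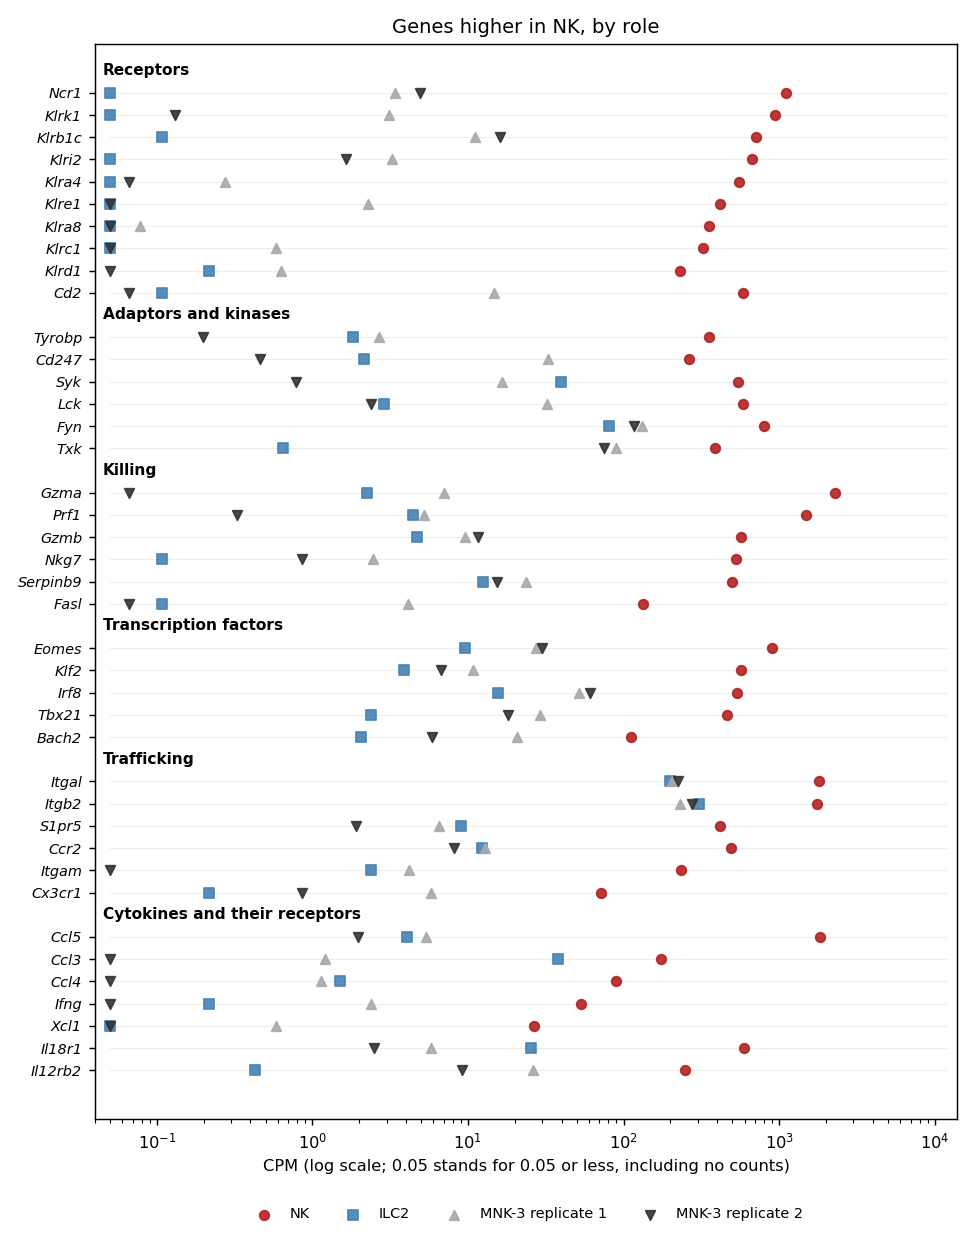
CPM on a log scale in the NK, ILC2 and both MNK-3 libraries for 40 of the higher genes, grouped by role; each symbol is 1 library and 0.05 stands for 0.05 CPM or less. The NK value (red circle) lies to the right of every other symbol in each row, from 26.5 CPM (Xcl1) to 2287 CPM (Gzma).

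Some transcription factors were set apart, most of them as higher. Over all genes, the higher set made up 2.91% of those at 10 CPM or more in NK. The lower set made up 5.81% of those at 10 CPM or more in each other library. Of 36 measured, 5 were higher (Eomes, Klf2, Irf8, Tbx21 and Bach2) and 2 were lower (Rora and Ahr), with medians of 1.19, 0.82 and 1.15. Tbx21, which encodes T-bet, had 465 CPM against 2.37, 29.2 and 18.2. Klf2, a factor of quiescence and of recirculation, had 565 CPM against 3.87, 10.9 and 6.72. Irf8, needed for NK responses to virus, had 538 CPM against 15.5, 51.96 and 60.8. Bach2, a repressor that restrains effector differentiation, had 111 CPM against 2.04, 20.7 and 5.86. Most other regulators of the NK lineage were present in all libraries. Runx3, a factor of NK maturation, had 422 CPM against 381, 237 and 335. Nfil3, needed to form NK progenitors, had 89.5 CPM against 124, 28.7 and 27.3. Id2, the inhibitor of E proteins that all innate lymphoid cells need, had 550.0 CPM against 828, 142 and 185. Gata3, the regulator of ILC2, was in neither set with 127 CPM against 1015, 97.5 and 93.03. It was high in ILC2 only.

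Adhesion and homing genes of circulating lymphocytes were higher in NK. Of 26 measured, 14 were higher and 1, Cxcr6, was lower, with medians of 2.43, 2.99 and 3.40. Itgal, the alpha chain of the integrin LFA-1, had 1803 CPM against 198, 205 and 225. Its partner Itgb2 had 1756 CPM against 307, 229.6 and 275. Itgam (CD11b), which also pairs with Itgb2 and marks mature NK cells, had 233 CPM against 2.37, 4.18 and 0. Itgb1 had 1325 CPM against 164, 159 and 228. Its partner Itga2, the integrin CD49b by which NK cells are sorted, had 406 CPM against 18.6, 31.8 and 0.329. S1pr5, a receptor for a lipid that draws NK cells into blood, had 419 CPM against 9.03, 6.52 and 1.91. S1pr1, its counterpart in other lymphocytes, had 92.5 CPM against 18.5, 3.04 and 0.659 and was under 4-fold with other scalings. The chemokine receptors Ccr2, Cx3cr1 and Cxcr3 had 489, 71.6 and 51.96 CPM in NK. Cxcr6, which holds lymphocytes in liver and mucosa, had 5.61 CPM against 150.1, 333 and 478.

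Inflammatory chemokines were higher in NK, and type 2 cytokines were nearly without reads there. Of 21 measured, 5 were higher and none lower. Ccl5, which draws T cells and monocytes, had 1844 CPM against 4.09, 5.35 and 1.98. Ccl4 had 88.8 CPM against 1.51, 1.13 and 0. Xcl1, which draws dendritic cells, had 26.5 CPM against 0, 0.586 and 0. Ccl3 had 175 CPM against 38.1, 1.21 and 0, only 4.59-fold above ILC2, and was under 4-fold with other library scalings. Ifng, the main NK cytokine, had 53.04 CPM against 0.215, 2.38 and 0. Il5 and Il13, the type 2 cytokines, had no counts and 2 reads in NK against 1334 and 1663 CPM in ILC2.

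Cytokine receptors divided in both directions, 4 higher and 3 lower of 28. Il18r1, the IL-18 receptor chain, had 594 CPM against 25.5, 5.82 and 2.50. Il12rb2, the signalling chain for IL-12, had 249.9 CPM against 0.430, 26.3 and 9.09. Il10ra, the ligand-binding chain for IL-10, had 368 CPM against 32.6, 7.81 and 0.132. Il10rb, its partner, had 129 CPM against 31.1, 27.9 and 13.05 and was under 4-fold with other scalings. The lower genes included Il7r, the IL-7 receptor, with 50.02 CPM against 348, 269 and 347. Il2ra, the high-affinity chain for IL-2, had 4.74 CPM against 2256, 208 and 254. Ifngr2, the signalling chain for interferon gamma, had 3.45 CPM against 45.9, 66.1 and 80.4. The chain that IL-2 and IL-15 share, Il2rb, had 1827 CPM against 244, 344 and 466, so of these chains NK was low in Il2ra and highest in Il2rb. The ligand-binding chain for interferon gamma, Ifngr1, had 934 CPM against 99.5, 259.6 and 345, highest in NK, whereas Ifngr2 was lowest there. Il7r was under 4-fold with other scalings. IL-2, IL-7 or IL-15 were in the media of ILC2 and MNK-3, so medium and cell type cannot be told apart here.

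Genes known to mark circulating NK cells against tissue ILC1 were mostly higher. Of 13 genes of conventional NK cells, 12 were higher; the exception, Zeb2, a factor of terminal maturation, had 611 CPM against 489, 30.8 and 27.7. Of 13 ILC1 genes none was higher and 6 were lower: Il7r, Rora, Tmem176b, Cxcr6, Cd200r1 and Tmem176a. The 6 became 5 with TMM scaling, without Il7r, and 4 with median-of-ratios scaling, without Il7r and Cd200r1. Without MNK-3 replicate 1, 2 ILC1 genes were higher and 7 lower. The other cells here are not ILC1, so these 6 were set against helper cells that carry them too. Of 12 genes of mature NK cells 9 were higher, and of 12 genes of immature cells 1 was higher and 2 were lower. Immature genes were present. Tcf7, a factor of early lymphocytes, had 1092 CPM against 124, 639 and 919. Cd27, a receptor lost late in maturation, had 97.03 CPM against 4.19, 30.3 and 2.04. The counts for immature genes rest on few members, and with either other scaling they were 2 higher and 1 lower.

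Genes of resting lymphocytes were higher in part. Of 16 quiescence genes 6 were higher and none lower (4 higher with either other scaling). Txnip, a brake on glucose uptake, had 746 CPM against 136, 15.6 and 18.3. Btg2, an antiproliferative protein, had 452 CPM against 71.3, 59.3 and 46.1. Tsc22d3, a glucocorticoid-induced repressor, had 264 CPM against 33.2, 40.4 and 29.1. Immediate early genes, which also respond to tissue dissociation, gave 7 higher of 24 and none lower. Jun had 818 CPM against 50.8, 105 and 147. Fos, its partner in AP-1, had 250.1 CPM against 3.23, 10.8 and 7.84. Dusp2, a phosphatase that ends MAP kinase signals, had 350.4 CPM against 4.19, 23.2 and 0.395. The list was not uniform. Nr4a1, an orphan nuclear receptor induced by antigen receptors, had 50.5 CPM against 34.6, 405 and 599, highest in MNK-3. Egr1 had 78.1 CPM against 25.3, 33.4 and 20.3 and was in neither set. What cell isolation adds to these values was not tested.

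Interferon-stimulated and MHC class I genes mostly stayed outside the sets. Of 26 interferon-stimulated genes 1 was higher, Ifi47 with 94.9 CPM against 19.4, 8.08 and 2.64, and with other scalings none. Without MNK-3 replicate 1, 2 were higher. Isg15, a ubiquitin-like protein of the interferon response, had 1.72 CPM against 2.80, 10.6 and 10.7. Of 14 MHC class I genes 2 were higher. H2-Q6, a non-classical class I gene, had 445 CPM against 65.3, 66.1 and 88.1. Nlrc5, the transactivator of class I genes, had 161 CPM against 37.7, 34.9 and 28.3. H2-K1, a classical gene, had 2335 CPM against 951, 357 and 493 and was in neither set. H2-Q genes are close copies and differ between strains, so the MNK-3 values are uncertain. Nlrc5 was under 4-fold with other scalings.

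Among the lower genes, lists of dividing cells had the largest shares of their members. The set of 466, of which 464 encode proteins, held 0.464% of NK gene reads, against 4.84%, 5.53% and 6.85% in the same order. The median was 5.61 CPM in NK, against 53.6, 72.7 and 81.7 CPM, and the median distance to the nearest library was 7.05-fold; 194 lay at 8-fold or more and 127 under 5-fold. ILC2 was the nearest library for 322 of them. Of the 8016 genes at 10 CPM or more in each other library, the lower set made up 5.81%.

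Of 30 cell division genes, 29 were lower in NK, with medians of -3.80, -4.19 and -4.66; the 30 genes summed to 552.6 CPM in NK against 7096, 10010 and 13700 CPM. Mki67, the proliferation antigen Ki-67, had 150.1 CPM against 2014, 2745 and 4011. Top2a, the topoisomerase that untangles replicated chromosomes, had 103 CPM against 1106, 1789.7 and 2607. Cdk1, the mitotic kinase, had 7.12 CPM against 117, 175 and 208. Its partner Ccnb1 had 0.431 CPM against 65.4, 49.9 and 44.4, the NK value being 2 reads with an interval of 0.0522 to 1.56 CPM. Kinetochore and spindle genes lay with them, such as Cenpf with 18.8 CPM against 400.0, 708 and 823. Kif11, the motor that separates spindle poles, had 19.2 CPM against 241, 384 and 558. The exception was Cenpa, the centromeric histone, with 20.9 CPM against 69.7, 129 and 152. With median-of-ratios scaling 26 of the 30 were lower, and with TMM scaling 30. These levels are of a pool, and fewer dividing cells cannot be told apart from less RNA per cell.

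The promoter stretches of 3 of these genes are printed because they hold matches to 2 short motifs of cell cycle promoters, the CCAAT box and the CHR element (TTTGAA), in capitals on either strand; most windows of the lower set do not hold both. They are the 250 bases before the start, from RefSeq, GRCm38.p6.
Mki67, chr7:135716380-135716629, minus strand: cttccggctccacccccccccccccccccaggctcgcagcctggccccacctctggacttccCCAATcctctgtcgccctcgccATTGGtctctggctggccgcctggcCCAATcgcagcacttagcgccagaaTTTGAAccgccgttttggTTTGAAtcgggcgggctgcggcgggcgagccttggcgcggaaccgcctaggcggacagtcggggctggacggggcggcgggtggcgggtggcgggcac
Top2a, chr11:99024190-99024439, minus strand: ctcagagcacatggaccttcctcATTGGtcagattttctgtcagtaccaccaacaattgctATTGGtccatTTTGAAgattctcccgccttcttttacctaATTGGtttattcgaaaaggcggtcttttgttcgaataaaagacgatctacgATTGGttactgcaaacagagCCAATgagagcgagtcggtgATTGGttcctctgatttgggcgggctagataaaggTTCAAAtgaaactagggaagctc
Cdk1, chr10:69352913-69353162, minus strand: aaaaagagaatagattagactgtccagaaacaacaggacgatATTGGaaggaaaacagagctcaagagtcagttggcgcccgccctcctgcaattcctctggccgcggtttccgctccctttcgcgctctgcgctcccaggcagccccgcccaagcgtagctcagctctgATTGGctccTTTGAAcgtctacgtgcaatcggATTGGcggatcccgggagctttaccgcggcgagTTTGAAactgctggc
Mki67 held 3 CCAAT and 2 CHR matches, Top2a 6 and 2, and Cdk1 3 and 2. Both motifs are known as elements of genes expressed late in the cell cycle. Windows of 300 bases were found for 335 of the 466 lower genes, 411 windows in all. CCAAT occurred in 48.7% of them, against 37.7% of the 8205 windows of genes at 10 CPM or more in each other library and 37.4% of all windows. CHR occurred in 23.1% against 11.7% and 17.8%, and both together in 15.6% against 4.91% and 6.92%. Within windows of more than 10 CpG both together occurred in 17.6% of the lower genes' windows, against 4.47% for genes at 10 CPM or more in each other library. Within windows of at most 10 CpG the order was the other way: both together in 6.58% against 7.31%, CCAAT in 30.3% against 35.8% and CHR in 17.1% against 20.8%. Unlike the higher genes, the lower genes had a median of 21 CpG.

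**Figure D4:**
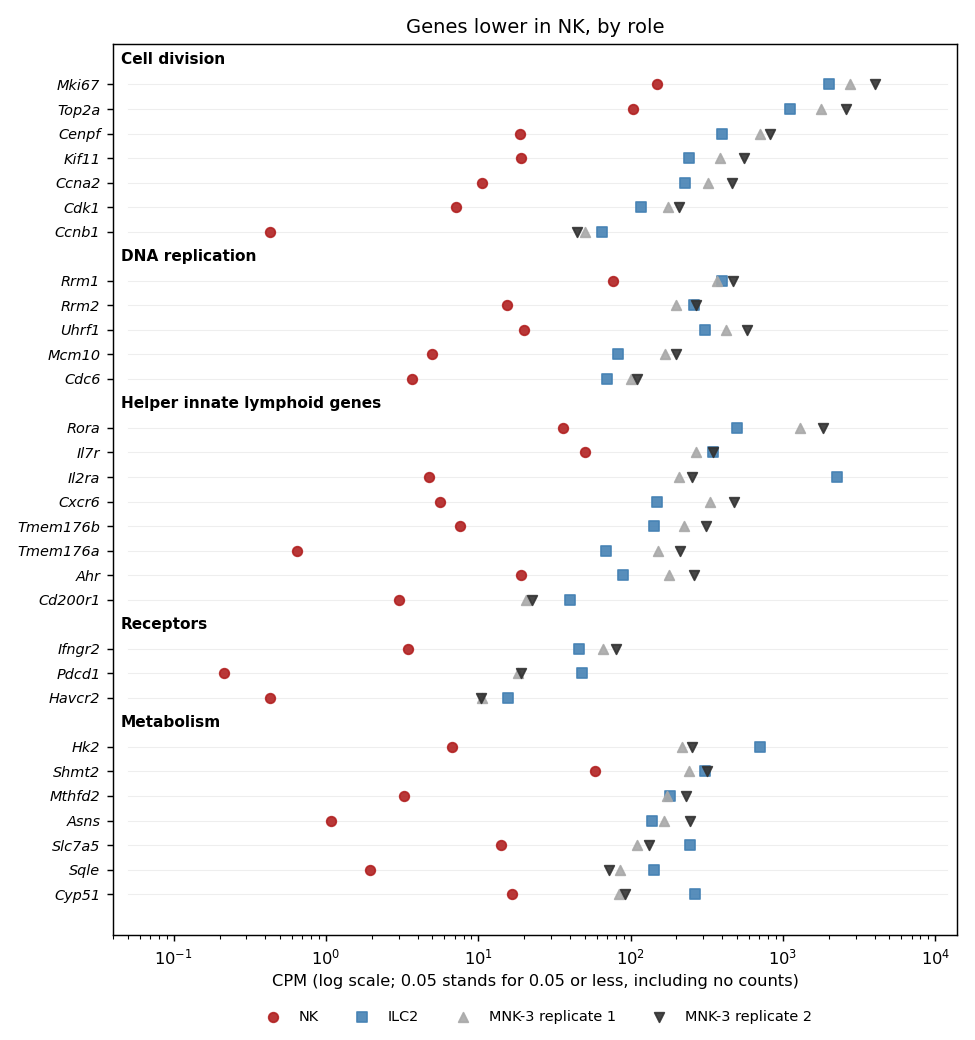
CPM on a log scale in each library for 30 of the lower genes, grouped by role; each symbol is 1 library. The NK value (red circle) lies to the left of every other symbol in each row, from 0.216 CPM (Pdcd1) to 150.1 CPM (Mki67).

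DNA replication followed in part. Of 30 genes of replication and nucleotide supply 15 were lower and none higher, with medians of -1.98, -2.84 and -2.90. Rrm2, the regulated subunit of ribonucleotide reductase, had 15.5 CPM against 261, 199 and 269. Uhrf1, which maintains DNA methylation, had 20.1 CPM against 308, 423 and 580.2. Cdc6, which licenses origins, had 3.67 CPM against 69.8, 101 and 109. Rrm1, the more stable subunit of the reductase, had 76.5 CPM against 400.4, 368 and 468 and was under 4-fold with other scalings. The helicase genes Mcm2 to Mcm7 were in neither set. Mcm6 had 212 CPM against 454, 504 and 672. Pcna, the sliding clamp of the polymerases, had 117 CPM against 146, 180.0 and 245.

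Core and linker histones were lower, with 13 of 21 listed genes in the set, 11 with TMM scaling and 5 with median-of-ratios scaling. Hist1h1b, a linker histone, had 43.99 CPM against 479.6, 319 and 454. Hist1h3b, a core histone, had 21.1 CPM against 216, 168 and 256. Hist1h1e, another linker histone, had 693 CPM against 961, 737 and 1082 and was in neither set. Of all 67 canonical histone genes measured, 34 were lower and none higher, and 19 were under 10 CPM in a library other than NK and so could not be called. Chromosome 13, which holds the main histone cluster, carried 8.84% of the lower genes against 3.80% of all protein-coding genes. Histone genes are near-identical, so reads may be split among them.

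**Figure D5:**
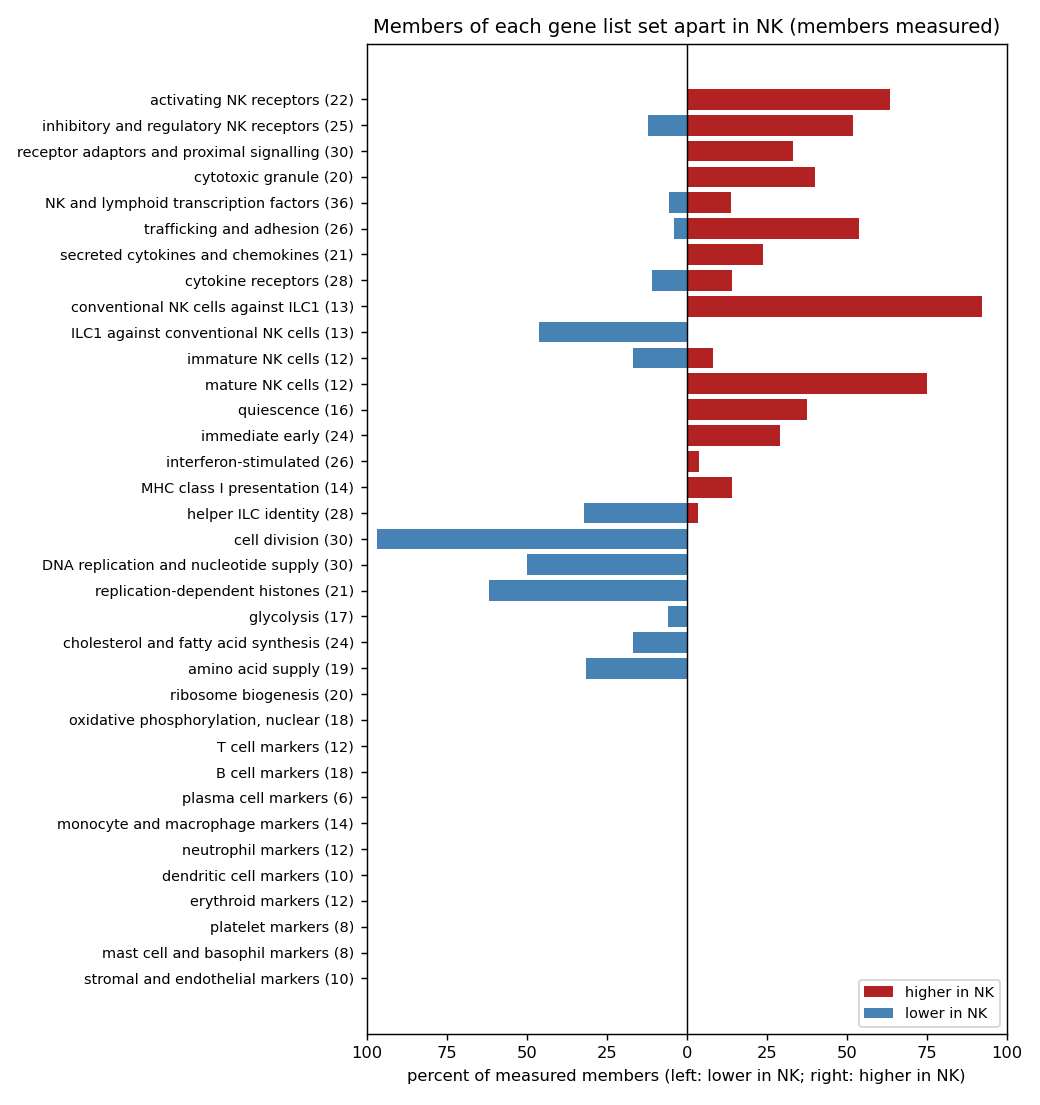
For 35 gene lists, the percent of measured members that were higher in NK (right, red) and lower in NK (left, blue), with the number measured in parentheses. Cell division reaches 29 of 30 on the left, conventional NK genes reach 12 of 13 on the right, and the lists of other blood and stromal cells have none on either side.

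Genes shared by ILC2 and MNK-3 as helper cells were lower in NK. Of 28 helper identity genes 9 were lower and 1, Il18r1, was higher. Rora, a nuclear receptor needed for ILC2 development, had 36.2 CPM against 497, 1292 and 1841, with a NK interval of 30.95 to 42.1 CPM. Ahr, the aryl hydrocarbon receptor, had 19.2 CPM against 89.6, 178 and 259. Tmem176b, an ion channel gene on chromosome 6, had 7.55 CPM against 142, 225 and 313. The adjacent Tmem176a had 0.647 CPM against 68.8, 152 and 211, its NK value being 3 reads with an interval of 0.133 to 1.89 CPM. Cd200r1, an inhibitory receptor, had 3.02 CPM against 40.01, 20.7 and 22.7. Tnfrsf25, the receptor for TL1A, had 3.67 CPM against 25.1, 22.9 and 16.6. Cd200r1 and Tnfrsf25 were under 4-fold with median-of-ratios scaling. Genes of only 1 helper type lay outside the rule. Il1rl1, the IL-33 receptor of ILC2, had 1.08 CPM against 1457, 5.93 and 0. Il23r, the IL-23 receptor of ILC3, had 0 CPM against 0, 209 and 306. With median-of-ratios scaling 6 of the 28 were lower.

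The inhibitory receptors Pdcd1 and Havcr2, which mark activated or exhausted lymphocytes, were also lower. Pdcd1 (PD-1) had 0.216 CPM against 47.6, 18.2 and 19.2, the NK value being 1 read with an interval of 0.00546 to 1.20 CPM. Havcr2 (TIM-3) had 0.431 CPM against 15.7, 10.5 and 10.3, the NK value being 2 reads; the other libraries lay close to the 10 CPM minimum. Havcr2 was no longer called with TMM scaling, and neither gene with median-of-ratios scaling, because a MNK-3 library then fell under 10 CPM.

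Few biosynthetic genes were set apart, and their shares are to be read against the 5.81% given above. Of 19 genes of amino acid supply 6 were lower (4 with TMM and 3 with median-of-ratios scaling). Asns, asparagine synthetase, had 1.08 CPM against 139, 166 and 246. Mthfd2, a mitochondrial folate enzyme, had 3.23 CPM against 182, 173 and 232. Slc7a5, a transporter of large neutral amino acids, had 14.02 CPM against 245, 109 and 132 and was under 4-fold with median-of-ratios scaling. The serine pathway genes Phgdh, Psat1 and Shmt2 had 9.70, 17.9 and 58.2 CPM in NK, and all 3 were under 4-fold with other scalings. Of 24 cholesterol and fatty acid genes 4 were lower (2 with other scalings). Sqle, the squalene epoxidase, had 1.94 CPM against 142, 85.6 and 71.6. Of 17 glycolysis genes 1 was lower, a share near that background, or 3 without replicate 1. It was Hk2, the inducible hexokinase, with 6.68 CPM against 703, 216 and 255. Ldha, lactate dehydrogenase, had 191 CPM against 2021, 305 and 408. No gene of 20 in ribosome biogenesis or of 18 nuclear genes of oxidative phosphorylation was set apart; their medians were -1.17, -0.65 and -0.37, and -0.88, -0.33 and -0.62. The glycolysis list had medians of -2.81, -0.74 and -0.73, so it differed more from ILC2 than from MNK-3.

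Some of the lower genes with the highest level in the other cells belong to no list above. Irs2, an adaptor of insulin and IL-4 signals, had 174 CPM against 803, 1009 and 1497. Aebp2, a Polycomb cofactor, had 105 CPM against 539, 502 and 674. Cbx5, the heterochromatin protein HP1 alpha, had 80.2 CPM against 392, 460.4 and 648. Aebp2 was under 4-fold with both other scalings, Irs2 and Cbx5 with median-of-ratios scaling. Cpd, a carboxypeptidase of the secretory route, had 30.6 CPM against 499, 357 and 520.2. Among higher genes outside the lists, Ptprc, the phosphatase CD45, had 4248 CPM against 642, 163 and 57.3. Plek, a protein kinase C substrate, had 953 CPM against 54.4, 3.36 and 0.791. Adgre5, the adhesion receptor CD97, had 922 CPM against 55.6, 16.5 and 7.71. Gimap4, a GTPase of lymphocytes, had 1068 CPM against 148, 6.36 and 0.922. Zfp36l2, an RNA-binding protein, had 963 CPM against 211, 97.8 and 111 and was under 4-fold with other scalings.

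The 4-fold limit cut through a continuum. Just inside the higher set were St5 at 4.06-fold, Zfp827 at 4.06, Slfn2 at 4.09 and Efhd2 at 4.15, and just outside were Baiap3 at 3.99, Epha1 at 3.99, Ncald at 3.98 and Slc9a7 at 3.97. Just inside the lower set were Med12l at 4.01, Yif1b, Gas8 and Nxpe3 at 4.02, and just outside Inpp4b at 3.995, Gemin6 and Chtf18 at 3.99 and Ift74 at 3.97. At 8-fold 119 higher and 194 lower genes remained, and at 2-fold the sets grew to 627 and 1179.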

How the data were processed

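RNA-seq was deposited for 4 mouse libraries: 1 of NK cells, 1 of ILC2 and 2 of MNK-3. Per the labels' protocols, the RNeasy Plus Micro kit gave the RNA, and a stranded total-RNA kit (SMARTer, Pico version) gave the libraries. The protocol mentions technical replicates, and their pooling is not stated. The authors used STAR 2.7.8a and HTSeq with mm10 (GRCm38), per the submitters' processing notes. Neither HTSeq's strand option nor its annotation is given in the sources used here, so reads of overlapping and antisense genes may be mixed. The deposited values, in a unit recorded as other, are whole-number read counts per Ensembl gene, not normalized. NK and ILC2 list 53465 genes and MNK-3 31053; the 30731 genes in all tables were used, with names and mm10 positions from GENCODE M21 for 30692. Entries that name no gene were dropped; in the order NK, ILC2, MNK-3 replicate 1 and replicate 2 they took 49.3%, 25.9%, 76.5% and 26.6% of the reads. In NK and ILC2 the 13 mitochondrially encoded protein genes are listed without counts, so none is in either set. They stay in the library totals, and those at 10 CPM or more in MNK-3 stay in the medians over all genes. With mitochondrially encoded genes left out of the totals, 251 genes were higher and 467 lower.

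Counts were divided by the library's total over the shared genes to give CPM. The rule of 10 CPM and 4-fold was applied to each library singly, in Python 3.11.15 with pandas 2.3.3, numpy 2.4.6 and scipy 1.17.1, and the scripts were tested on simulated data. No test across genes was made, because NK has 1 library; lists are described by counts and medians. Log2 ratios add 0.5 CPM to each value. Unless another library is named, the fold of a higher gene is over the highest other library and that of a lower gene is of the lowest other library over NK. Alternatives were 2 other scalings (TMM and median of ratios, in own code), 2 other denominators, other folds and minimums, an added 0.5 CPM, thinning to the smallest library, the ends of the counting intervals, and leaving out or averaging the MNK-3 libraries. Named genes are the 15 most abundant of each set (for lower genes, by the lowest other library), up to 6 members of either set per list, list members in neither set that define a list or cell, genes at the limits of the rule, and 4 markers; some genes are not reported here. Named beyond this rule, after their values were seen, were Ahr, AW112010, BC035044, Ccna2, Ccnb1, Cd244a, Cd247, Cd3g, Cdc6, Cdk1, Clec2d, Ctsw, Cx3cr1, Cxcr3, Fasl, Havcr2, Ifngr2, Itga2, Klra1, Klra3, Klrb1a, Klrc2, Klrc3, Klrg1, Klri1, Ly9, Mcm10, Pdcd1, Serpinb9b, Slamf7, Tigit, Tnfrsf25, Trdc, Tyrobp and the genes of the closing observations. Promoters came from RefSeq (GRCm38.p6), with identical windows counted once. The genes and lists were chosen with earlier results of these data known.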

Additional observations from a re-analysis of the deposited data

Results flagged for a closer look

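Some genes with more reads in NK than in ILC2 could not enter the comparison, because they are not listed for MNK-3. Of the 22734 genes listed for NK and ILC2 only, 323 reached 10 CPM in NK (over all genes listed for that library), and 144 of these were also at 4 times ILC2 or more. They have no MNK-3 value here, so they were not held to the rule of the report. By type, 99 were TEC, gene models that await experimental evidence, 18 were pseudogenes of several kinds and 15 were processed transcripts. No share of these types among all genes listed for NK and ILC2 only is given, so the counts lack a background. Nor is the share at 4 times ILC2 given for the shared genes, so 144 of 323 is not read as an excess. Reads that fell in no gene took up 47.1% of the NK library and 23.1% of the ILC2 library. Whether that difference enters these counts was not tested. The following were chosen after their values were seen. Klra14-ps, a pseudogene among the Ly49 receptor genes, had 203 CPM in NK and no counts in ILC2. Gm1966 and Gm4759, unprocessed pseudogenes on chromosome 7, had 816 and 719 CPM in NK and 2.95 and 10.02 CPM in ILC2. Peg13, a transcript on chromosome 15, had 119.6 CPM against 16.7 CPM. Pseudogenes can share reads with near-identical genes, which was not tested.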

How the results depend on the processing

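The set sizes followed the fold, the minimum and the choice of MNK-3 library. At 8-fold 119 genes were higher and 194 lower, with 102 list members in either set, and at 2-fold 627 and 1179, with 252 list members, against 251, 466 and 167 in the report. A minimum of 50 CPM left 220 lower genes, and the nearer ends of the 95% counting intervals left 261. Leaving out an MNK-3 library gave 265 to 428 higher genes, 487 to 593 lower genes and 181 to 183 list members. The upper value for higher genes came without replicate 1, where 177 genes were added, 133 of them under 50 CPM in NK; their medians were 24.1 CPM in NK, 17.2 CPM in replicate 1 and 1.84 CPM in replicate 2. The other alternatives gave 196 to 307 higher and 372 to 577 lower genes. TMM scaling gave 240 higher genes, 217 of them in the reported set, and 493 lower genes, 417 of them in it; median-of-ratios scaling gave 280 (221) and 372 (325). Of 107 genes taken by the naming rule, 89 and 81 stayed at 4-fold or more with these scalings. None changed sign under the 8 alternatives computed for single genes (101 had a value without MNK-3 replicate 1). Unchanged signs are no check here, because these genes were chosen at 4-fold or more. Median-of-ratios scaling, for example, moved their log2 ratios by only -0.35 to 0.99. No paired analysis was possible because NK and ILC2 have 1 library each. With 1 NK library no spread between NK samples can be given, and at 0.216 CPM a read, NK values under 1 CPM rest on 4 reads or fewer.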

Other observations

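The genes of both paragraphs here were chosen after their values were seen. Among the 164 higher genes that belong to no list were some, not all, of the AIM2-like receptor genes of chromosome 1, which encode sensors of DNA and regulators of transcription. Ifi209 had 229.8 CPM against 9.25, 5.93 and 0.593. Its neighbour Ifi208 had 102 CPM against 0.108, 14.8 and 3.29. Ifi206 had 128 CPM against 1.61, 2.34 and 0.132, and Mndal had 146 CPM against 21.8, 15.4 and 6.39. Others of the family were not set apart: Ifi203 had 248 CPM against 21.2, 75.6 and 56.7, and Ifi213 and Ifi214 had 29.97 and 15.3 CPM in NK. Ifi203, Ifi213 and Ifi214 were each higher when MNK-3 replicate 1 was left out. Epsti1 had 742 CPM against 11.6, 61.99 and 64.8, and Sp100, a nuclear body protein, had 747 CPM against 116, 90.4 and 74.5. Samd3, whose promoter window holds a T-box match, had 346 CPM against 0.215, 11.9 and 0.

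Among the 386 lower genes in no list, Tiparp, an ADP-ribosyltransferase, had 30.4 CPM against 319.5, 163 and 215. Cyp1b1, a cytochrome P450, had 0.647 CPM against 11.8, 57.1 and 79.2, the NK value being 3 reads. The condensin genes Ncapd2, Ncapg, Ncaph and Ncapg2, which compact mitotic chromosomes, had 71.6, 10.1, 10.3 and 17.03 CPM in NK, and no other library was under 95.6 CPM for any of them; the condensin genes Smc2, Smc4, Ncapd3 and Ncaph2 were in neither set. Ly6a, the stem cell antigen Sca-1, had 0.862 CPM against 529.7, 96.4 and 126, and Lgals3, galectin 3, had 6.04 CPM against 53.2, 317 and 424. Tfrc, the transferrin receptor of growing cells, had 13.4 CPM against 397, 97.4 and 117, and Epas1, a hypoxia-inducible factor, had 6.90 CPM against 57.9, 145 and 205. Cell type and culture cannot be told apart as sources of these differences.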
